A study of Mus musculus with 4 samples.

Results

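TNF superfamily ligands are cytokines that act as trimers, either held on the cell surface or shed from it, and signal through receptors of the TNF receptor superfamily. They carry inflammatory signals, costimulate T cells, support B cells and lymphoid tissue, or trigger cell death. Plasmacytoid dendritic cells (pDCs), the immune cells best known for type I interferon, detect viral RNA and DNA in endosomes and also make TNF and death or costimulatory ligands when activated. The 10 ligand genes described here are Tnf, Lta, Ltb, Tnfsf4, Tnfsf9, Tnfsf10, Tnfsf12, Tnfsf13b, Tnfsf15 and Cd70. They were found by gene symbol, and each matched 1 of the 27179 genes of the count table. The low-count filter kept 8 of the 10, and the remaining 2 had no count at all.

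The cells were C57BL/6 mouse pDCs raised from bone marrow over 8 days of culture in Flt3 ligand, then given the TLR7 ligand imiquimod (1 µg/ml) for 24 h. Sorting used SiglecH and CD11b, and cells with and without the BFP reporter of the chemokine gene Cxcl10 were collected, giving 2 BFP-positive and 2 BFP-negative libraries for RNA-seq. All 4 libraries come from stimulated cultures, and no unstimulated library was analysed here. The population label of the BFP-negative libraries reads CXCL10+BFP-, while the design text names that population negative for both, so groups rest on BFP alone. The labels do not say whether CD11b-low or CD11b-high cells were taken, nor whether libraries came from separate animals, so p-values measure the spread between these libraries. In bulk RNA, fewer cells that express a gene and less RNA per cell cannot be told apart.

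Library totals were 11868254 to 12570117 counts. Levels within a gene are CPM, counts relative to the library total, scaled between libraries by the TMM method of edgeR, and 1 count was worth 0.0789 to 0.0858 CPM. Cxcl10 had 3 and 19 counts in the BFP-negative libraries and 149 and 154 in the BFP-positive ones, as the sort would set. The genes of the surface markers of the sort were also higher in both BFP-positive libraries, though only Siglech was called. Siglech rose from 611 and 615 to 785 and 820.3 CPM (adjusted p = 0.0485), and Itgam, which encodes CD11b, had 22 and 52 counts in BFP-negative and 112 and 129 in BFP-positive libraries, a 3.44-fold difference that was not called (adjusted p = 0.0546). All 14 pDC markers examined had counts, led by Ly6d, Irf8 and Bst2, with a summed level of 24386 and 28942 CPM in BFP-negative and 20370 and 19439 CPM in BFP-positive libraries; 3 rose and 4 fell. Markers of other cells moved with the groups. Of 12 monocyte or macrophage markers 9 were tested, 5 rose and 2 fell, while Mertk and F13a1 were among those with no count. Csf1r had 3 and 0 counts in BFP-negative and 265 and 398 in BFP-positive libraries, and passed the low-count filter only through the latter. Fcgr1 rose 34.6-fold, Lyz2 16.1-fold, Cd14 9.69-fold and Ccr2 3.05-fold, while Apoe fell 10.6-fold and Adgre1 3.56-fold. The sum of the 12 was 428 and 491 CPM in BFP-negative and 682 and 747 CPM in BFP-positive libraries. Within that sum Cd68, which was not called, had a mean of 263 against 282 CPM. Of 13 conventional dendritic cell markers 12 were tested, 4 rose and 1 fell, with sums of 840 and 841 against 1061 and 1127 CPM. Of 8 B cell markers 5 were tested and 2 fell (sums 122 and 123 against 94.9 and 104.6 CPM). Only 2 of 8 T or NK cell markers were tested and neither was called (32.0 and 22.0 against 13.9 and 19.8 CPM). Cd3g and Zap70 were at 0. Only 4 of 8 neutrophil markers were tested and none was called (16.2 and 19.9 against 12.96 and 27.99 CPM), with Elane at 0. Markers below the low-count filter could not be called. Over all genes tested, 7.6% rose and 3.51% fell. The part of these markers in the ligand results was not tested.

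The ligand genes split into opposite directions. Tnfsf9 and Ltb were higher in BFP-positive cells, 29.7-fold and 3.19-fold, and Lta, Tnfsf15 and Tnf were lower, 4.65-fold, 4.19-fold and 2.11-fold. Of the 8 tested members, 2 rose, 3 fell and 3 did not pass the test, at an adjusted p threshold of 0.05 in edgeR's quasi-likelihood test. Over all 11706 genes tested, 7.6% rose, 3.51% fell and 11.1% were called in either direction. The members' median log2 fold change was -0.11, against -0.02 over all genes tested. In 7 of the 8 tested members the 2 groups did not overlap, as was so for 54.2% of all genes tested. Cd70 is among the 7 and passed the low-count filter only through the BFP-positive libraries, where it was higher. Its place there is therefore partly set by the filter.

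**Figure D1:**
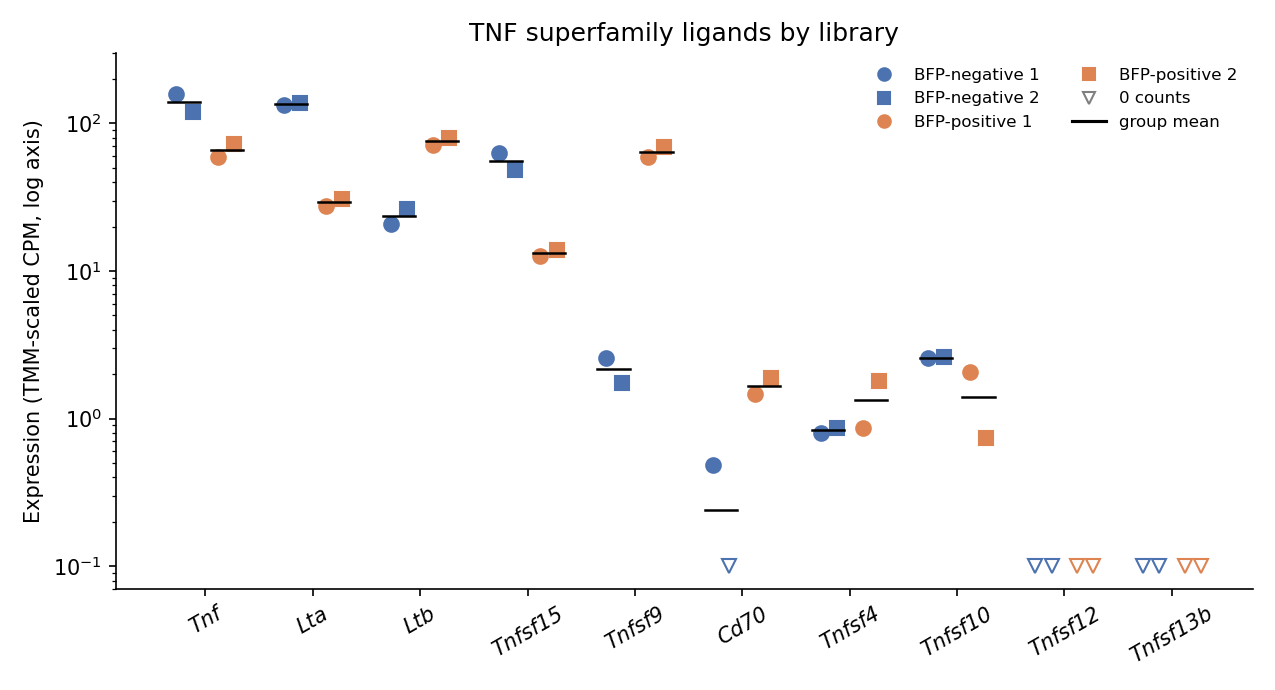
Level of each ligand gene in each library, in TMM-scaled CPM on a log axis; blue marks are BFP-negative and orange marks BFP-positive libraries, circles are replicate 1 and squares replicate 2, black bars are group means, and open triangles at the foot of the axis are libraries with 0 counts. Tnf, Lta and Tnfsf15 lie lower, and Ltb and Tnfsf9 higher, in both BFP-positive libraries, whereas the other detected members stay below 2.61 CPM.

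**Figure D2:**
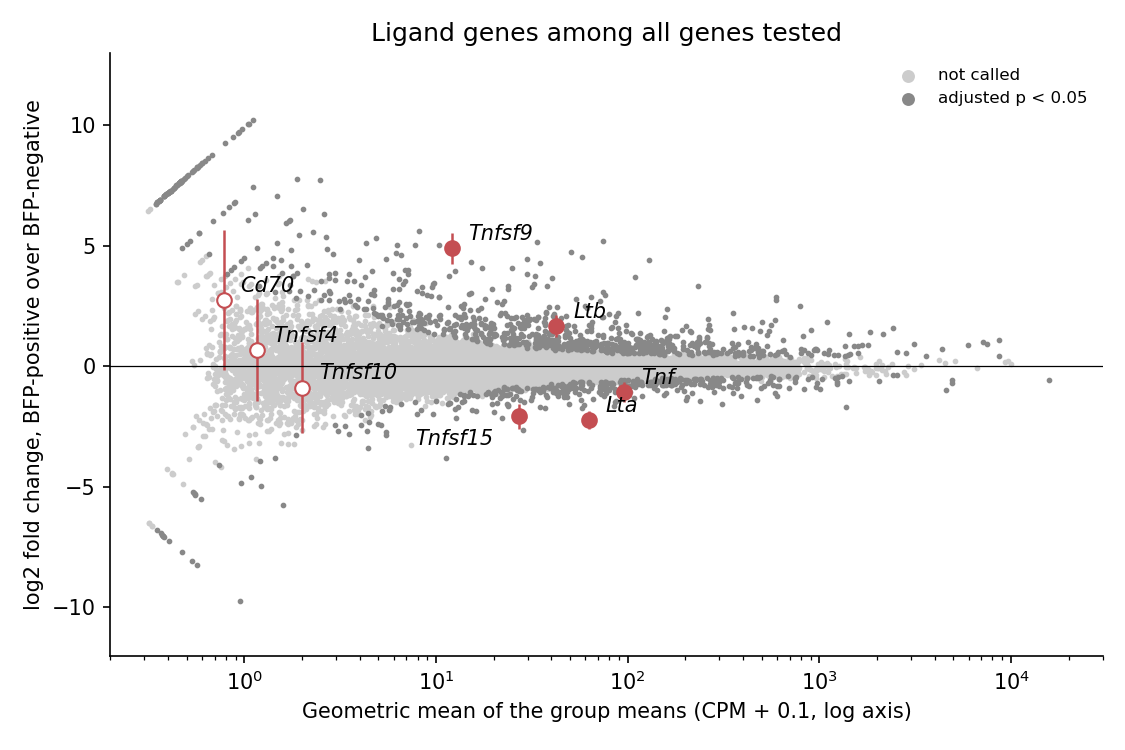
The log2 fold change (BFP-positive over BFP-negative) of every gene tested against its mean level on a log axis, with the 8 tested ligand genes in red, filled where adjusted p was under 0.05, and red bars for their 95% intervals. Tnfsf9 lies at 4.89 and Lta at -2.22, and the intervals of Cd70, Tnfsf4 and Tnfsf10, at the low end of the axis, cross 0.

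The inflammatory ligands Tnf, Lta and Ltb sit side by side in the class III region of the mouse MHC on chromosome 17. On GRCm38, Ltb (Entrez gene 16994) lies from 35194507 to 35196305 on the plus strand, Tnf (Entrez gene 21926) from 35199367 to 35202007 on the minus strand and Lta (Entrez gene 16992) from 35203165 to 35205578 on the minus strand. The 3 genes span 11.1 kb, with 3.06 kb between Ltb and Tnf and 1.16 kb between Tnf and Lta, and no exon of theirs overlaps another annotated gene in GENCODE M21. Their promoter windows run from 250 bases before to 50 bases after the annotated start on GRCm38.p6 (RefSeq). They are shown together with that of Tnfsf15, which fell with Lta and Tnf. Any part of these sequences in the directions of the genes was not tested. The windows are chr17:35194257-35194556 (plus strand) for Ltb, chr17:35201958-35202257 (minus strand) for Tnf, chr17:35205302-35205601 (minus strand) for Lta and chr4:63745010-63745309 (minus strand) for Tnfsf15, each written 5′ to 3′ along its gene. Capitals mark matches to the NF-kB motif (GGG, then any 2 bases, then TTTCC), the interferon response motif (GAAA, any 2 bases and GAAA), the AP-1 motif TGANTCA or the TATA box TATAAA, each searched on both strands.
Ltb: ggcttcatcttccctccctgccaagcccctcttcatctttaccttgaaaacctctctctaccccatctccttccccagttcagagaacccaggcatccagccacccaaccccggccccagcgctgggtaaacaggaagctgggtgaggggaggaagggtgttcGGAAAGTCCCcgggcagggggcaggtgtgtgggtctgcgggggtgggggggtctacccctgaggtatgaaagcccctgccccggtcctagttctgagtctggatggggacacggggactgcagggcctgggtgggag
Tnf: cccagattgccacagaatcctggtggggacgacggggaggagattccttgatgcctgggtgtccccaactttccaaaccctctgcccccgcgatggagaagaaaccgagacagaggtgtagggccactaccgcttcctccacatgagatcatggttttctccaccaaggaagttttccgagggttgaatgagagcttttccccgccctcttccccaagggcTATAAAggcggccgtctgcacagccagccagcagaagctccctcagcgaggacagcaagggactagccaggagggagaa
Lta: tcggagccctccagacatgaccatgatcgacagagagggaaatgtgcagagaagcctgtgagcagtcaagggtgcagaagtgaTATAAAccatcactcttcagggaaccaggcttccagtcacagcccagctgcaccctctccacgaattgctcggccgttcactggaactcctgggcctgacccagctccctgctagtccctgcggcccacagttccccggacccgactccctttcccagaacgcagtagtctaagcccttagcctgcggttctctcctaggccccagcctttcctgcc
Tnfsf15: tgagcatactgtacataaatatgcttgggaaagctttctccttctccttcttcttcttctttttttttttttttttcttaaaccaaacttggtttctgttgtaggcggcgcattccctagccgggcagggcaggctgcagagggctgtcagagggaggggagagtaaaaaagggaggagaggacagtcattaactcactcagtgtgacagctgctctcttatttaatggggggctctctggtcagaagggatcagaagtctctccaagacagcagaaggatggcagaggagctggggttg
Ltb held the NF-kB match GGAAAGTCCC, on the minus strand, with its first base at -87 from the start site. Of 32851 promoter windows of this length, 1.63% hold a match to that motif. Tnf and Lta had no match to it in these windows, and bases outside the windows were not searched. Each held a TATAAA, at -29 in Tnf and -167 in Lta, as do 13.6% of windows on either strand. The Lta window is set on a start inside the gene span given above, which ends at 35205578. Most of that window, with its TATAAA, therefore lies within the span of Lta. The looser NF-kB pattern (GGG, then any 5 bases, then CC), which contains the first, was found in Ltb, Tnf and Lta and in 50.8% of all windows. Tnfsf15 and Tnfsf10 held no match to any of the 5 patterns. Tnfsf13b has 2 annotated starts with overlapping windows, of which the downstream window held the interferon response match GAAAGTGAAA at -16, a motif found in 3.44% of windows. The AP-1 match TGAGTCA lay in the bases that both Tnfsf13b windows share, against 7.81% of all windows with a match to that motif. Both starts lie inside the annotated span of Tnfsf13b, which begins at 10006229, and so do both matches. Windows for 6 of the 10 members were at hand; those of Tnfsf4, Tnfsf9, Tnfsf12 and Cd70 are not shown.

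Tnf encodes the soluble and membrane cytokine that gave the family its name. It was at 158.9 and 120.0 CPM in BFP-negative replicates 1 and 2 and at 59.6 and 72.8 CPM in BFP-positive replicates 1 and 2. Both BFP-positive libraries lay below both BFP-negative ones. Its log2 fold change was -1.07 (SE 0.19, 95% interval -1.49 to -0.66, adjusted p = 0.00506). Lta encodes lymphotoxin alpha, which is secreted as a homotrimer that binds the TNF receptors or held at the surface by lymphotoxin beta. It was at 134.3 and 136.9 CPM in BFP-negative and at 27.4 and 30.9 CPM in BFP-positive libraries, with no overlap and little spread within either group. The log2 fold change of Lta was -2.22 (SE 0.17, 95% interval -2.60 to -1.84, adjusted p = 3.41e-05). Ltb encodes lymphotoxin beta, the membrane subunit that anchors lymphotoxin alpha and binds the lymphotoxin beta receptor. It moved the other way, from 20.9 and 26.5 CPM in BFP-negative to 71.4 and 79.6 CPM in BFP-positive libraries. For Ltb the log2 fold change was 1.67 (SE 0.21, 95% interval 1.21 to 2.13, adjusted p = 0.000628). The lowest BFP-positive value of Ltb was above the highest BFP-negative one.

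Levels of different genes were compared per length, as RPKM from the authors' log2 RPKM values. In the BFP-negative libraries Lta (100.2 ± 0.476 RPKM, SD, n = 2) and Tnf (88.2 ± 19.0) led, and their order was not the same in both libraries. The ratio of Lta to Tnf was 0.989 and 1.34 in BFP-negative and 0.538 and 0.497 in BFP-positive libraries, so Lta fell further than its neighbour in both. Ltb per Lta, the 2 subunits of the surface lymphotoxin complex, went from 0.197 and 0.245 in BFP-negative to 3.29 and 3.26 in BFP-positive libraries. Per length, Ltb was the lesser transcript of the pair in both BFP-negative libraries and the greater one in both BFP-positive libraries. The ratio of Ltb to Tnf was 0.195 and 0.327 against 1.77 and 1.62. These ratios are taken within a library and do not depend on scaling between libraries.

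Genes around this cluster were read for context. Of 9 genes within 50 kb of Ltb, all tested, 1 rose and 2 fell, the latter being Tnf and Lta. Among all genes tested 7.6% rose and 3.51% fell. The 1 that rose was Lst1, a leukocyte gene next to Ltb, with 943 and 981 counts in BFP-negative and 1385 and 1421 in BFP-positive libraries (log2 fold change 0.62, SE 0.15, adjusted p = 0.0252). On the far side of Lta, Nfkbil1 was at 0.06 (SE 0.35) and the RNA helicase gene Ddx39b at 0.00 (SE 0.13) on the log2 scale, and neither passed the test. Aif1, a macrophage-associated gene further out beyond Lst1, was at 0.26 (SE 0.15) and did not pass either.

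**Figure D3:**
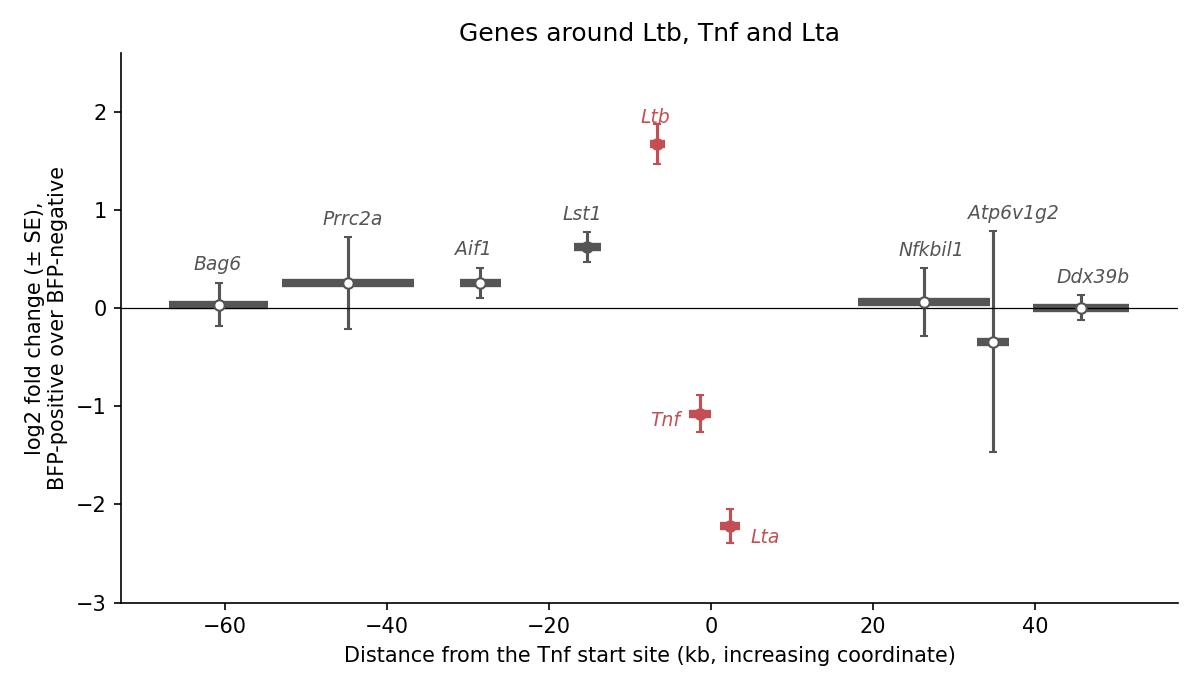
The log2 fold change with its SE of each tested gene within 50 kb of Ltb, Tnf or Lta, placed by distance from the Tnf start site in kb, with thick bars for the span of each gene and filled marks where adjusted p was under 0.05. Ltb at 1.67 and its neighbours Tnf at -1.07 and Lta at -2.22 stand apart from the flanking genes, which lie between -0.34 and 0.62.

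Among the T cell costimulatory ligands, Tnfsf9 was the member with the largest change. It encodes the ligand of the receptor Tnfrsf9 (CD137) and costimulates T cells, mainly CD8 T cells. On GRCm38 it lies on chromosome 17 from 57105287 to 57107758, outside the TNF cluster. It had 32 and 22 counts in BFP-negative and 689 and 843 counts in BFP-positive libraries, which was 2.57 and 1.74 against 59.1 and 69.4 CPM. The groups lay far apart, and the log2 fold change was 4.89 (SE 0.29, 95% interval 4.24 to 5.55, adjusted p = 8.12e-06). Ordered by fold change, Tnfsf9 was the 106th of the 890 genes that rose. The predicted gene Gm11110 overlaps 14.9% of its exon bases on the opposite strand, and the library kit does not mark strand. Gm11110 itself had 19 and 26 counts in BFP-negative and 36 and 61 in BFP-positive libraries (log2 fold change 1.18, SE 0.69, adjusted p = 0.339). Cd70, the ligand of the costimulatory receptor CD27, lies 38.2 kb further along, from 57145997 to 57149777. It had 6 and 0 counts in BFP-negative and 17 and 23 in BFP-positive libraries. Only the BFP-positive counts reached the minimum of the low-count filter. Counts were higher in both BFP-positive libraries, but the fitted log2 fold change of 2.75 had an interval of -0.15 to 5.65 and the gene was not called (adjusted p = 0.229). Summed counts gave a ratio of 7.04 (exact 95% interval 2.96 to 20.3, which covers counting error and leaves out the spread between replicates).

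Tnfsf4, which encodes the ligand of the T cell receptor Tnfrsf4, was close to the limit of detection. It had 10 and 11 counts in BFP-negative and 10 and 22 in BFP-positive libraries, so the groups met (log2 fold change 0.67, 95% interval -1.45 to 2.79, adjusted p = 0.732). That interval holds changes in either direction, so a difference was not detectable at this depth. Tnfsf4 lies on chromosome 1 from 161395438 to 161418206.

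Tnfsf15 encodes a ligand of the death-domain receptor Tnfrsf25 that costimulates T and innate lymphoid cells. It lies on chromosome 4 from 63724600 to 63745059. It fell with Lta and Tnf, from 62.8 and 48.2 CPM in BFP-negative to 12.6 and 13.8 CPM in BFP-positive libraries. The groups did not overlap, and the log2 fold change was -2.07 (SE 0.24, 95% interval -2.59 to -1.54, adjusted p = 0.000445). Ordered from the lowest fold change, Lta, Tnfsf15 and Tnf were at places 39, 43 and 136 of the 411 genes that fell. Within a library the RPKM ratio of Tnfsf9 to Tnfsf15 went from 0.195 and 0.172 in BFP-negative to 22.2 and 23.8 in BFP-positive libraries.

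Tnfsf10 encodes TRAIL, a death ligand that activated pDCs are known to display. It had 32 and 33 counts in BFP-negative and 24 and 9 in BFP-positive libraries. Both BFP-positive values were lower, yet the spread between them was wide and the gene was not called (log2 fold change -0.88, 95% interval -2.77 to 1.01, adjusted p = 0.592). Tnfsf10 lies on chromosome 3 from 27317077 to 27339665. Tnfsf12 (TWEAK) and Tnfsf13b (BAFF, a B cell survival factor) had 0 counts in all 4 libraries. For a count of 0, the 3 counts it allows are 0.237 to 0.257 CPM in a library, for counting error only. In GENCODE M21, 48.3% of the exon bases of Tnfsf12 are shared with the read-through gene Tnfsfm13, and Tnfsfm13 and Tnfsf13 were also listed at 0. The sources used here do not say how reads that overlap several genes were counted, so the 0 of Tnfsf12 does not bound its RNA. No exon of Tnfsf13b overlaps another gene.

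Set side by side per length, the makeup of the ligand transcripts turned over. Tnf and Lta together held 85.3% and 83.2% of the summed RPKM of the 10 genes in BFP-negative libraries, against 32.4% and 33.2% in BFP-positive ones. Ltb and Tnfsf9 together went from 9.26% and 12.3% to 64.8% and 63.8%. The sum itself was 237 and 210 RPKM in BFP-negative and 172 and 197 RPKM in BFP-positive libraries. The order by mean RPKM in BFP-negative cells was Lta, Tnf, Ltb (22.1 ± 3.29), Tnfsf15 (9.76 ± 1.997), Tnfsf9 (1.81 ± 0.525), Tnfsf4 (0.542 ± 0.0189), Tnfsf10 (0.538 ± 0.00534) and Cd70 (0.318 ± 0.419). Lta and Tnf, and the last 3, did not differ beyond their spread. In BFP-positive cells it was Ltb (67.4 ± 4.70), Tnfsf9 (51.0 ± 5.40), Tnf (39.9 ± 5.35), Lta (20.6 ± 1.60), Tnfsf15 (2.22 ± 0.128), Cd70 (1.96 ± 0.343), Tnfsf4 (0.820 ± 0.403) and Tnfsf10 (0.281 ± 0.186). With exon lengths from GENCODE, Tnfsf15 (17.0 RPKM) came before Ltb (15.951 RPKM) in BFP-negative cells, and Ltb and Tnfsf9 were level in BFP-positive cells (48.6 RPKM for each), so those places in the order depend on the gene model.

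**Figure D4:**
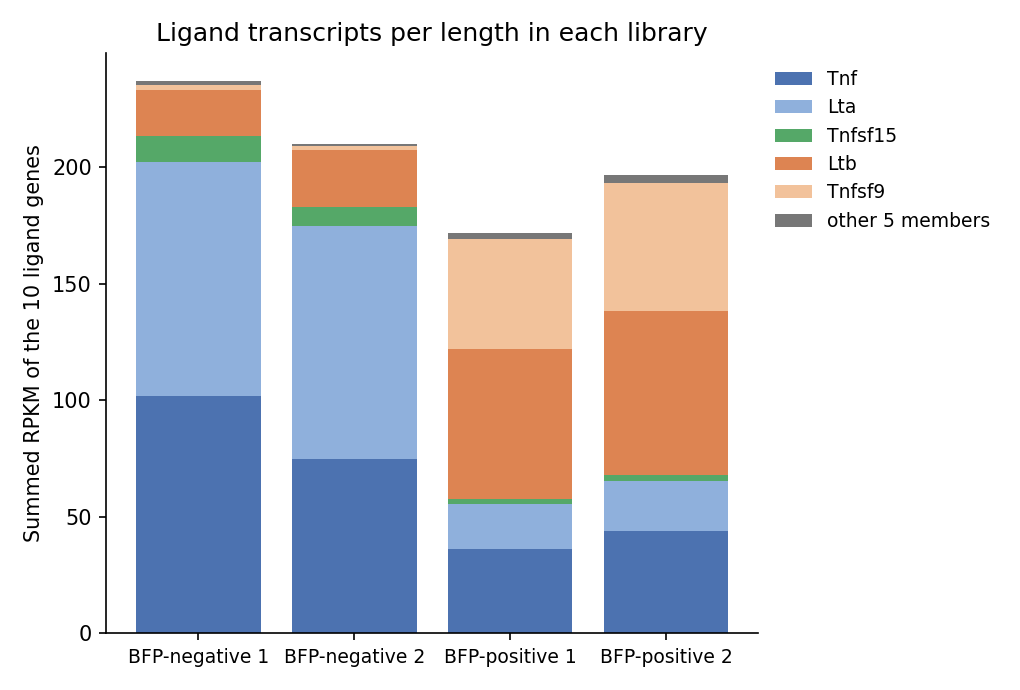
Summed RPKM of the 10 ligand genes in each library, stacked by gene, with the remaining 5 members in grey. Tnf and Lta fill 85.3% and 83.2% of the bar in BFP-negative libraries, and Ltb and Tnfsf9 fill 64.8% and 63.8% in BFP-positive ones.

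Of 8 other TNF superfamily ligands, only Tnfsf8, the ligand of CD30, had enough counts to be tested. It had 58 and 15 counts in BFP-negative and 22 and 19 in BFP-positive libraries and was not called (log2 fold change -0.76, SE 0.85, adjusted p = 0.652), and its direction turned with BFP-negative replicate 1 left out (0.55, adjusted p = 0.864). Cd40lg, Fasl, Tnfsf11, Tnfsf13 and Tnfsf18 had no count, and Tnfsf14 and Eda had 11 and 7 counts, all in BFP-positive replicate 2.

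The receptors of these ligands were read from a list of 16 genes. Of these 12 were tested, 3 rose and 2 fell, with a median log2 fold change of 0.09. Over all genes tested, 7.6% rose and 3.51% fell. Tnfrsf9, the receptor of Tnfsf9, rose together with its ligand, from 0.482 and 3.63 CPM in BFP-negative to 20.6 and 17.7 CPM in BFP-positive libraries (log2 fold change 3.21 with an SE of 0.66, adjusted p = 0.0117). The BFP-negative libraries differed several-fold from each other, yet both lay below the BFP-positive ones. The log2 fold change of Tnfrsf9 was 2.40 with BFP-negative replicate 1 left out and 5.30 with BFP-negative replicate 2 left out, and the gene was called in both cases. Tnfrsf4, the receptor of Tnfsf4, had 2 and 0 counts in BFP-negative and 149 and 137 in BFP-positive libraries. That was 151 times the level, where counting error alone gives an exact 95% range of 41.4 to 1252 (adjusted p = 0.000469 in edgeR). Only the BFP-positive counts of Tnfrsf4 reached the minimum of the low-count filter. The place of this receptor among those tested and called is therefore partly set by the filter. Its fitted log2 fold change of 7.07 was 6.16 with BFP-negative replicate 2 left out, and with BFP-negative replicate 1 left out the BFP-negative side held 0 counts and gave no measured size; Tnfrsf4 was called in both cases. The 2 receptors of Tnf and of soluble lymphotoxin alpha went in opposite directions. Tnfrsf1a, the broadly expressed death-domain receptor, rose from 59.4 and 50.9 CPM to 103.4 and 114.8 CPM (log2 fold change 0.99 with an SE of 0.17, adjusted p = 0.00479). Tnfrsf1b, the leukocyte receptor without a death domain, fell from 245 and 239 CPM to 146.1 and 180.1 CPM (log2 fold change -0.57 with an SE of 0.14, adjusted p = 0.0308). The call on Tnfrsf1b was lost with BFP-negative replicate 1 left out (adjusted p = 0.0573), and also with BFP-positive replicate 1 left out (adjusted p = 0.253). Per length, Tnfrsf1b over Tnfrsf1a was 1.81 and 2.06 in BFP-negative and 0.620 and 0.688 in BFP-positive libraries. Tnfrsf13b (TACI), a receptor of BAFF, fell 2.62-fold from 300.5 and 352 CPM to 124.1 and 124.8 CPM (adjusted p = 0.000183). Of the other BAFF receptors on the list, Tnfrsf13c was at 28.9 and 27.2 against 26.1 and 27.9 CPM and was not called. Tnfrsf17 had no count.

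Ltbr, the receptor of the lymphotoxin beta complex, was at 27.1 and 35.8 CPM in BFP-negative and 43.8 and 54.3 CPM in BFP-positive libraries and did not pass (log2 fold change 0.64 with an SE of 0.23, adjusted p = 0.104). With the replicate number as a block Ltbr was called higher (0.65, adjusted p = 0.0401). Tnfrsf25, the receptor of Tnfsf15, had 2 counts in all and was not tested. Cd27, the receptor of Cd70, was at 1.53 and 3.79 CPM against 2.40 and 4.20 CPM and did not pass (adjusted p = 0.850). Tnfrsf10b, the mouse TRAIL death receptor, was at 2.35 ± 0.425 and 1.67 ± 0.545 CPM (n = 2 each) and was not called. The TRAIL decoy receptors were scarce. Tnfrsf22 had 78 and 28 counts in BFP-negative and 4 and 7 in BFP-positive libraries. Only its BFP-negative counts reached the minimum of the low-count filter, so its place among the genes tested is partly set by the filter. Tnfrsf22 just missed the threshold (log2 fold change -3.17 with an SE of 0.91, adjusted p = 0.0501). It was called lower by DESeq2 (adjusted p = 0.0213), and by edgeR on library totals alone, without the low-count filter or with robust dispersion. It was not called by limma-voom (adjusted p = 0.130), by limma on log2 RPKM or with the replicate block. Tnfrsf22 passed without BFP-negative replicate 2 (-3.72, adjusted p = 0.0206), but not without BFP-negative replicate 1 (-2.23, adjusted p = 0.420) or either BFP-positive library (adjusted p = 0.173 and 0.104). Tnfrsf23 had 14 and 9 counts against none and was too low to be tested. Its summed BFP-negative level was 7.26 times a floor of 3 counts over the BFP-positive group. That ratio allows for counting error in the 0 only. It leaves out counting error in the BFP-negative counts and the spread between replicates, so it is no lower bound.

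Of 18 genes for ligand release and mRNA control, 17 were tested, 2 rose and none fell, with a median log2 fold change of 0.07. Of all genes tested 11.1% were called in either direction, so 2 of 17 was near that share. At an unadjusted p under 0.05 the numbers were 4 higher and 2 lower, and DESeq2 and limma-voom each called 1 lower. Zfp36 encodes tristetraprolin, which binds AU-rich elements and speeds the decay of Tnf mRNA. It rose from 20.4 and 21.6 CPM to 78.0 and 87.7 CPM, a log2 fold change of 1.98 (SE 0.19, adjusted p = 0.000158). Mapkapk2, a kinase that acts on tristetraprolin, rose from 234 and 253 CPM to 315 and 374 CPM (log2 fold change 0.50 with an SE of 0.13, adjusted p = 0.0394). Leaving out BFP-negative replicate 1 (adjusted p = 0.0960) or, separately, BFP-positive replicate 2 (adjusted p = 0.312) ended the call on Mapkapk2. Adam17, the sheddase of membrane TNF, was at 65.3 ± 7.52 and 52.3 ± 5.53 CPM (n = 2 each), and its partner Rhbdf2 at 101.4 ± 12.99 and 106.3 ± 27.2 CPM; neither passed (adjusted p = 0.338 and 0.881). Furin, a protease that cleaves several ligands of the family, was at 44.9 and 40.3 against 15.4 and 29.8 CPM (log2 fold change -0.92, adjusted p = 0.0819). Without BFP-positive replicate 2 it passed (-1.47, adjusted p = 0.00527), and without BFP-positive replicate 1 it did not (-0.52, adjusted p = 0.370).

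Of 19 signalling genes behind the receptors, all tested, 6 rose and none fell, and the median log2 fold change was 0.41. The shares over all genes tested were 7.6% higher and 3.51% lower. At an unadjusted p under 0.05 the numbers were 7 higher and 1 lower, and neither DESeq2 nor limma-voom called any lower. Map3k14, Relb and Nfkb2 belong to the alternative NF-kB route, which the lymphotoxin beta receptor is known to feed. Map3k14, the kinase of that route, went from 3.13 and 3.86 CPM to 12.02 and 13.09 CPM (log2 fold change 1.84 with an SE of 0.41, adjusted p = 0.0177). Relb, its transcription factor, went from 116 and 136 CPM to 199.97 and 262.33 CPM (log2 fold change 0.87 with an SE of 0.17, adjusted p = 0.00768). Birc2, a ubiquitin ligase bound to TNF receptor complexes, rose 2.11-fold, with 38.1 and 38.6 against 84.3 and 77.5 CPM (adjusted p = 0.00366). Nfkb1 rose 1.71-fold (adjusted p = 0.0133), and Birc3 and Nfkb2 were the other 2 that rose. The calls on Map3k14, Relb, Nfkb1, Birc3 and Nfkb2 were lost without BFP-positive replicate 2 (adjusted p = 0.0738, 0.0583, 0.120, 0.185 and 0.221). Without BFP-negative replicate 1 the adjusted p was 0.0714 for Birc3 and 0.0950 for Nfkb2, and Nfkb2 also missed when BFP-negative replicate 2 (0.0584) or, separately, BFP-positive replicate 1 (0.0932) was left out. The feedback inhibitors Nfkbia, at 1753 ± 63.7 and 1726 ± 125.9 CPM, and Tnfaip3, at 26.9 ± 0.0383 and 30.2 ± 1.60 CPM (n = 2 each), were not called.

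**Figure D5:**
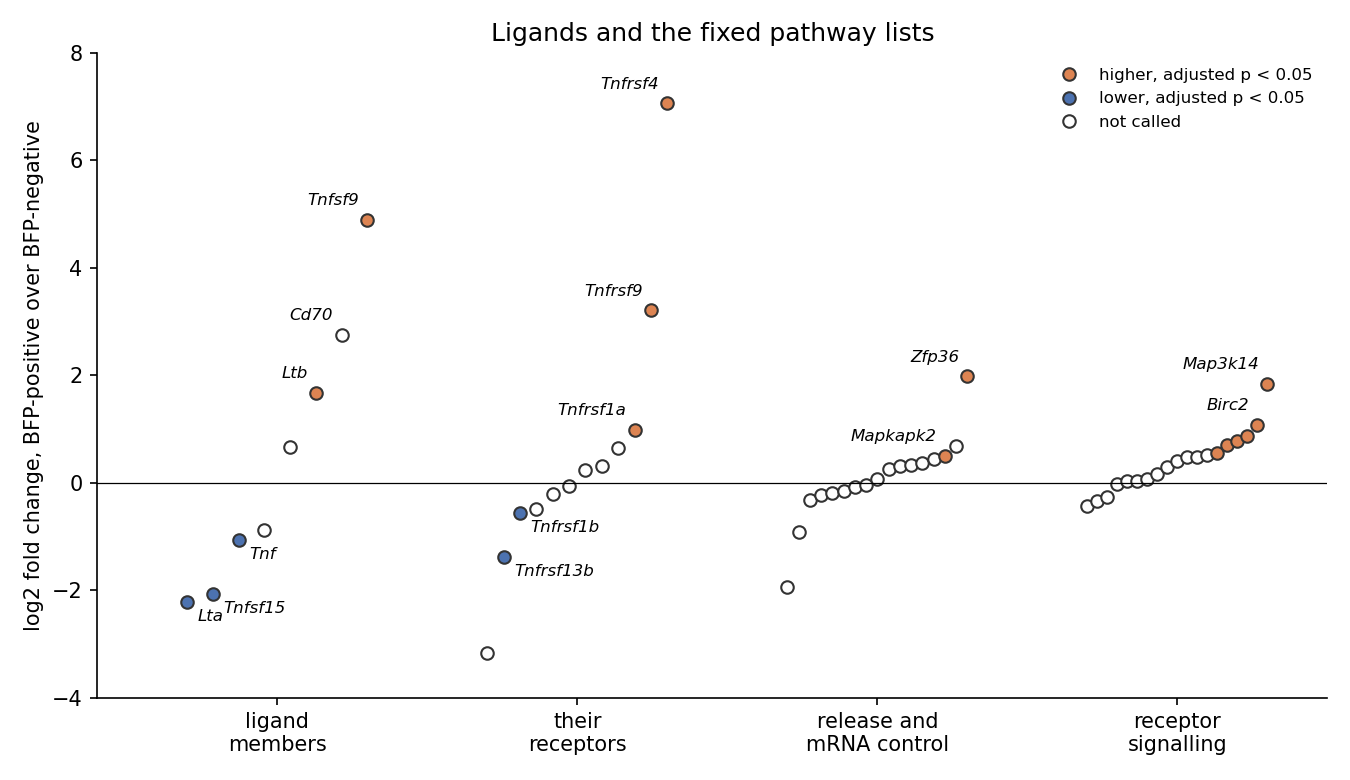
The log2 fold change (BFP-positive over BFP-negative) of each tested gene of the ligand, receptor, release and mRNA control, and signalling lists, ordered within its list, filled orange or blue where higher or lower at adjusted p under 0.05. The ligands reach from -2.22 (Lta) to 4.89 (Tnfsf9) and the receptors from -3.17 (Tnfrsf22, open) to the fitted 7.07 of Tnfrsf4, whose BFP-negative libraries held 2 counts.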

How the data were processed

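RNA-seq of 4 libraries was analysed, 2 BFP-positive and 2 BFP-negative, grouped by their titles. RNA was extracted by column (Qiagen) and full-length cDNA amplified by SMART-Seq, per the labels' protocols; the kit marks neither strand nor single molecules. The authors deposited raw counts per gene and, per library, log2 RPKM values (per gene length and library total). Subread, featureCounts and limma with GRCm38 and mm10 are named in the submitters' processing notes; versions, strand setting and treatment of reads that match several places are not given in the sources used here.

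Genes were kept by filterByExpr (minimum count 10, minimum total 15), which left 11706 of 27179. Counts were scaled by TMM and tested with edgeR 4.0.16 (R 4.3.3), quasi-likelihood, two-sided, with no term besides the group, 2 residual degrees of freedom and a biological coefficient of variation of 24.7%; p-values were adjusted by Benjamini-Hochberg across every gene tested, with a threshold of 0.05. SE was the log2 fold change over the square root of F, and 95% intervals used edgeR's total degrees of freedom. Means are given ± SD with n = 2. Replicates were separate libraries by their counts (chi-square per degree of freedom 19.5 and 15.2). Positions are from RefSeq on GRCm38.p6, which 25275 genes matched. The scripts were tested on simulated data. Alternatives were DESeq2 1.42.0, limma-voom and limma (3.58.1) on log2 RPKM, other scalings and filters, a replicate block and leaving out each library.

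The members and the 4 other gene lists were chosen with earlier results of these data known. Named by rule were all members, the called genes of each list (at most 4 per direction), the receptors of called ligands, genes of the sort and genes within 50 kb; the other list members and markers named were chosen after their values were seen.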

Additional observations from a re-analysis of the deposited data

How the results depend on the processing

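The 5 calls and 3 non-calls among the tested ligand genes had the same direction and the same side of the threshold under all 11 alternatives, and an adjusted p threshold of 0.01, chosen after seeing the data, also gave 2 higher and 3 lower. Leaving out 1 library gave log2 fold changes of -1.24 to -0.85 for Tnf, -2.30 to -2.13 for Lta, 1.52 to 1.87 for Ltb, -2.23 to -1.86 for Tnfsf15 and 4.66 to 5.21 for Tnfsf9. For the members not called the ranges were wide, 0.04 to 1.11 for Tnfsf4, -1.79 to -0.32 for Tnfsf10 and 1.80 to 7.36 for Cd70, the last fitted to 0 counts without BFP-negative replicate 1 and no measured size. Low counts limit these 3 genes.

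Over all genes, leaving out 1 library gave 559 to 921 higher and 245 to 408 lower, with the lowest counts without BFP-positive replicate 2 and BFP-positive replicate 1. Over all genes tested, libraries that share a replicate number did not clearly deviate together (correlation 0.059 across genes, which are not independent). That value weighs every gene alike and does not settle whether these libraries are pairs. Their titles also share a code, and the labels do not say what the number or the code marks. With the replicate number as a block, 1140 genes rose and 760 fell; among the ligands no call changed, with 2 higher and 3 lower, while receptors higher went from 3 to 4 (Ltbr), release and mRNA control genes higher from 2 to 3 (Zfp36l1) and signalling genes higher from 6 to 7 (Traf1), and 1 gene was lower in each of the release and mRNA control list (Furin) and the signalling list (Traf2), where none was without the block. By library totals alone 813 rose and 574 fell, and 1 release and mRNA control gene rose. DESeq2 and limma-voom each called 1 gene of that list lower. Receptors lower went from 2 to 3 (Tnfrsf22) with DESeq2, library totals alone, no low-count filter or robust dispersion. Limma on the log2 RPKM called 1 receptor lower, 1 release and mRNA control gene higher and 2 signalling genes higher. Leaving out 1 library gave 1 to 3 receptors lower, 1 to 2 release and mRNA control genes higher and 0 to 1 lower, and 1 to 5 signalling genes higher, the lowest without BFP-positive replicate 2. The cause was not tested.

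With GENCODE exon lengths the mean RPKM in BFP-negative cells was 15.951 for Ltb, 17.0 for Tnfsf15, 0.463 for Tnfsf4 and 0.502 for Tnfsf10, and in BFP-positive cells 48.6 for Ltb and 3.86 for Tnfsf15; the exon lengths differ between the gene models.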
